A study of Mus musculus with 12 samples.

Results

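The carriers of the inner mitochondrial membrane that belong to the SLC25 family, with the uncoupling proteins and the mitochondrial pyruvate carrier, were described in plasma cells of the bone marrow with and without Zbtb32, which encodes a BTB zinc finger transcription factor. The genes were chosen by their symbols, Slc25a followed by a number, or Ucp1, Ucp2, Ucp3, Mpc1 and Mpc2. Of the 19938 genes measured by a probe set that names a single gene, 49 were among them. Ucp2 and Mpc2 had no such probe set and are not analysed here. Where a gene had several, the one that was brightest on average over the 12 arrays was used.

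The arrays held RNA of 2 groups, Zbtb32-/- cells (6 arrays) and wild-type cells (Zbtb32 +/+, 6 arrays), described in the series text as biological replicates. In both groups the spleen cells came from CD45.2 donors immune to NP-CGG, a hapten joined to a carrier protein, and had been moved into CD45.1 recipients that were then challenged with NP-CGG. At day 7 after challenge, cells of the recipients' marrow that carried CD138 and CD45.2 and bound NP were sorted, leaving out those with CD45.1, CD11b, Ly6g or B220. The labels give neither the age nor the sex of the mice, nor whether cells of several mice were pooled, and the comparison asks which transcripts depend on Zbtb32 in recall plasma cells.

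Carriers of this family are small proteins of the inner membrane that move metabolites, nucleotides, ions and cofactors between the cytosol and the matrix, usually in exchange for another solute. Adenine nucleotide and phosphate carriers serve ATP synthesis, di- and tricarboxylate and amino acid carriers link the citric acid cycle with the cytosol, and others bring in iron, glutathione, folate or S-adenosylmethionine. Plasma cells secrete antibody at a high rate, and import of pyruvate into mitochondria is known to matter for long-lived plasma cells.

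The 5 promoters shown here were picked after the values were seen, because their genes gave the most even or the smallest-p differences described below: Slc25a43, Ucp3 and the dicarboxylate and citrate carriers Slc25a10, Slc25a11 and Slc25a1. Each is the 250 bases before the RefSeq start (assembly GRCm38.p6), written 5′ to 3′ on the gene's strand, at chrX:36743382-36743631, plus strand (Slc25a43), chr7:100472741-100472990, plus strand (Ucp3), chr11:120491587-120491836, plus strand (Slc25a10), chr11:70647040-70647289, minus strand (Slc25a11) and chr16:17928220-17928469, minus strand (Slc25a1). Capitals mark the letters GGGCGG or CCGCCC (the core of an SP1 box, both strands) and CACGTG (an E-box).
Slc25a43: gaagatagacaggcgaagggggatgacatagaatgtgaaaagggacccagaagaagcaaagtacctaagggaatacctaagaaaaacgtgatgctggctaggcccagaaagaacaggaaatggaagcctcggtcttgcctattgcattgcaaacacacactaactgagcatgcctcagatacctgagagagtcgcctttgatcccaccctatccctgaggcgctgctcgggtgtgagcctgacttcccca
Ucp3: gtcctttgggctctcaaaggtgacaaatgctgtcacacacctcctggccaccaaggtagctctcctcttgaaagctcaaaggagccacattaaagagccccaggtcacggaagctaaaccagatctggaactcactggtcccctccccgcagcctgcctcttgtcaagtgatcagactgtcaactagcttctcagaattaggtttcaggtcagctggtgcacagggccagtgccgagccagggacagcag
Slc25a10: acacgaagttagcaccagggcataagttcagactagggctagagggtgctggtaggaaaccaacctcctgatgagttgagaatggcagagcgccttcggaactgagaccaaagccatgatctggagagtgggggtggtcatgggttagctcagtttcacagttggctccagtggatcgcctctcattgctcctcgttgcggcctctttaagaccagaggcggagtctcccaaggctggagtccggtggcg
Slc25a11: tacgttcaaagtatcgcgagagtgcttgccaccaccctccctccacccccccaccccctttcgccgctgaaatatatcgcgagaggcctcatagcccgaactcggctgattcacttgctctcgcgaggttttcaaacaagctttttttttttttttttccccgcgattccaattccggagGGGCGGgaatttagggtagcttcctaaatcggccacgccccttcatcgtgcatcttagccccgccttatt
Slc25a1: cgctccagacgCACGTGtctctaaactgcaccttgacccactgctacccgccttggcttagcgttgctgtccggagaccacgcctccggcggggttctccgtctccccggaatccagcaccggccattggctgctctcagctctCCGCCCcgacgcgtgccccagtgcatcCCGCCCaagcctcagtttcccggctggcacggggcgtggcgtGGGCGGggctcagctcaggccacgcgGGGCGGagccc
The window of Slc25a1 held 4 of the SP1 letters and 1 E-box, that of Slc25a11 held 1 of the SP1 letters, and those of Slc25a43, Ucp3 and Slc25a10 held neither. The RefSeq promoter table had 52 windows for 41 genes of the family. The SP1 letters stood in 36 of these 52 windows (69.2%) and in 32.7% of all 32851 windows, and the E-box in 8 (15.4%) and in 6.02%. The letters of the NRF1 site, searched as GCGCA and GCGC with 1 base of any kind between them, stood in 2 windows (3.85%) against 3.74% of all, and CCGGAAGT, the letters of ETS factors, in 1 (1.92%) against 2.88%. Both strands were searched for each, and a match shows letters, not binding.

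The values are log2 RMA values, and levels of different probe sets do not rank transcripts. Medians of single arrays were 6.28 to 6.43, and any pair of arrays correlated at 0.914 to 0.984 over the probe sets. The probe set of Zbtb32 gave 6.47 to 6.73 in Zbtb32-/- cells and 6.39 to 6.88 in wild-type cells. Which part of the gene is deleted is not stated in the labels, so this checks no label. Markers of plasma cells averaged 10.48 to 11.14 per array in Zbtb32-/- cells and 10.40 to 11.21 in wild-type cells, with all 16 measured above the filter and Jchain (13.65) and Xbp1 (13.02) the highest. Markers of other cells were measured as well: the neutrophil list averaged 8.66 to 11.93 in Zbtb32-/- cells and 7.90 to 10.64 in wild-type cells, the B cell list 8.23 to 8.82 and 7.97 to 9.26, the monocyte and macrophage list 6.95 to 8.34 and 6.62 to 8.82, the erythroid list 6.68 to 7.48 and 6.16 to 7.83, and the T and NK cell list 5.79 to 6.14 and 5.91 to 6.83. Their highest members were S100a9 (12.55) and Ngp (12.25), Cd74 (12.16) and H2-Aa (11.20), Lyz2 (9.93) and C1qa (8.96), Car1 (9.18) and Slc4a1 (8.20), and Il7r (8.13) and Nkg7 (7.25), and only in the T and NK cell list were markers (3) at or below the filter. Xist, which is transcribed from an inactive X chromosome, read 11.48 and 11.22 in Zbtb32-/- replicates 2 and 3 and 8.87 in wild-type replicate 2, against 5.25 to 5.93 on the other arrays. In sorted bulk samples fewer cells of a type and less RNA per cell cannot be told apart.

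No carrier passed the test. With limma and Benjamini-Hochberg adjustment over the 14993 genes above a filter on low values (a mean above 5.49), 0 of the 44 carriers tested were called, with 0% of all genes called and a smallest adjusted p of 0.933. At an unadjusted p under 0.05 there were 4 carriers (9.09% of those tested), Slc25a43, Ucp3, Slc25a26 and Slc25a10, against 642 genes (4.28%) in the whole table. Slc25a31, Slc25a21, Slc25a2, Slc25a40 and Slc25a54 lay below the filter and were not tested. All differences below are log2 values of Zbtb32-/- cells minus those of wild-type cells. Of these, 33 of the 49 carriers were positive (67.3%) and 16 negative, where 46.4% of all 19938 genes were positive. The median difference was 0.07 over the carriers, against -0.01 over all genes and 0.01 over the genes tested. Bright genes also had positive medians: with all genes in 10 bins of rising level, the medians were 0.08, 0.12 and 0.13 in bins 8, 9 and 10, where the carriers had 0.17 (8 carriers), 0.19 (6) and 0.08 (5). In these bins 18 of 19 carriers were positive, and so were 74.7% of all 5982 genes. The median 95% interval of a tested gene, before adjustment, reached 0.311 to either side. Differences smaller than that mostly could not be told from 0 with these arrays, even unadjusted. Passing the adjusted test took more: Slc25a43, with a difference of 0.60, had an adjusted p of 0.933 (limma).

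**Figure D1:**
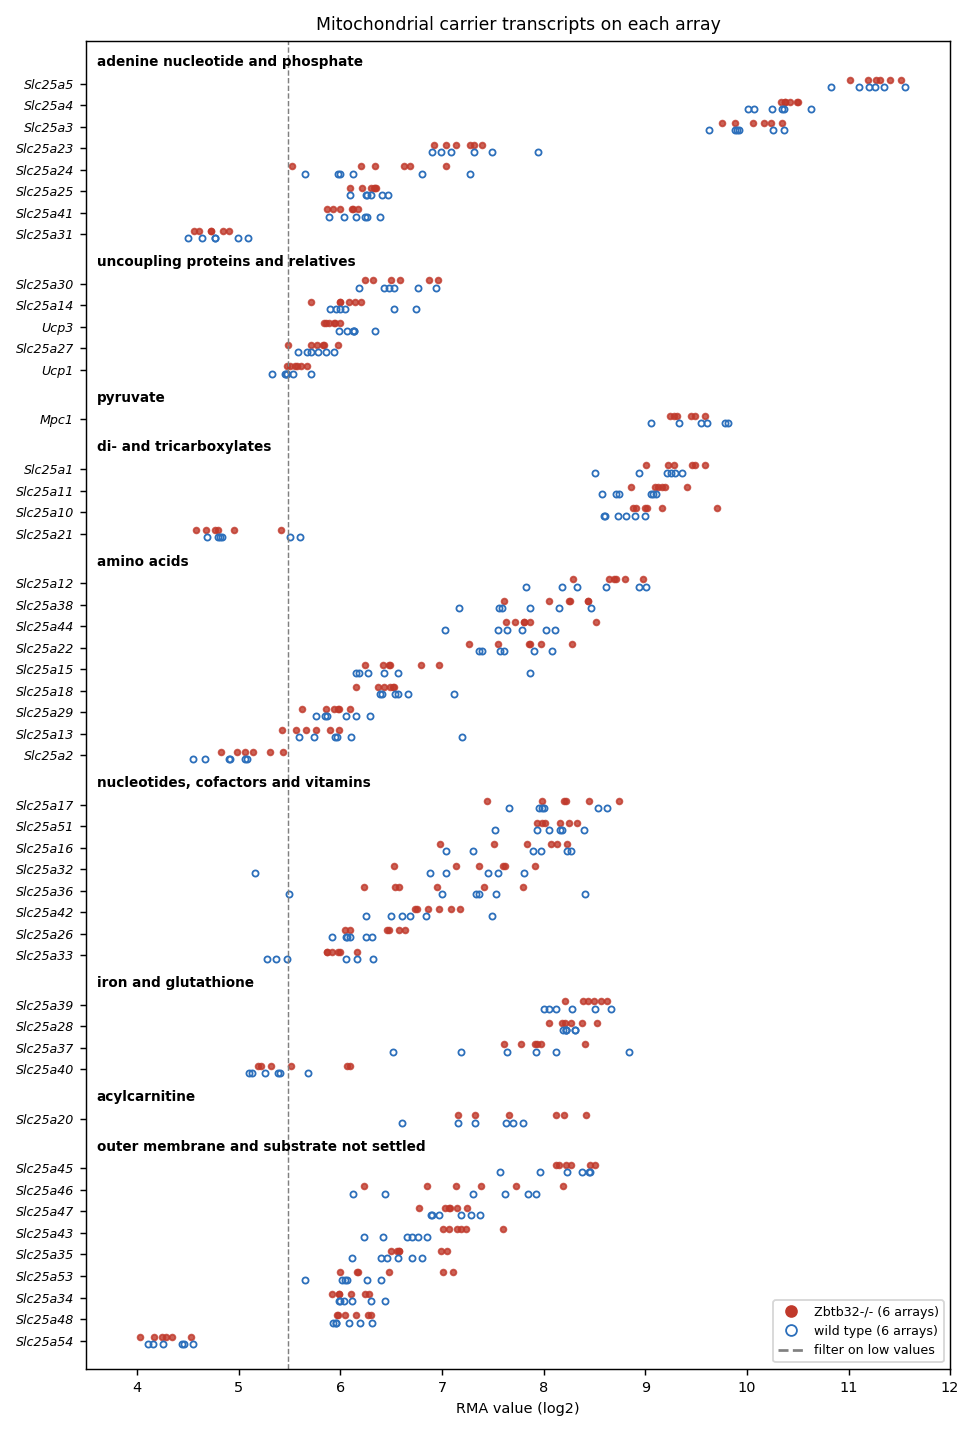
Log2 RMA value (x axis) of each of the 49 carriers (rows, by substrate) on each array; filled red points are the 6 Zbtb32-/- arrays, open blue points the 6 wild-type arrays, and the dashed line is the filter at 5.49. The groups overlap in every row except that of Slc25a43, and 5 carriers have their mean to the left of the line.

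Carriers of adenine nucleotides and phosphate showed small differences: 4 of 8 had a positive difference, the differences ran from -0.13 to 0.14, and 0 passed an unadjusted p under 0.05. Slc25a5, which exchanges ADP for ATP in most proliferating tissues, gave 11.31, 11.41, 11.52, 11.19, 11.27 and 11.01 in Zbtb32-/- replicates 1 to 6, against 11.35, 11.11, 11.55, 10.83, 11.20 and 11.26 in wild-type replicates 1 to 6. Slc25a4, its paralogue of heart and muscle, gave 10.50, 10.38, 10.43, 10.34, 10.50 and 10.37 in Zbtb32-/- replicates 1 to 6, against 10.36, 10.07, 10.63, 10.01, 10.34 and 10.25 in wild-type replicates 1 to 6. For both, the wild-type values enclosed those of the Zbtb32-/- arrays, and Slc25a4 averaged 10.42 ± 0.07 in Zbtb32-/- cells and 10.28 ± 0.22 in wild-type cells (SD, n = 6 each). The differences were 0.07 (95% interval -0.19 to 0.32) for Slc25a5 and 0.14 (95% interval -0.09 to 0.38) for Slc25a4. Slc25a5 has 3 single-gene probe sets, which differed by 0.07, 0.09 and 0.02, and how far these probe sets read near-identical copies such as Slc25a4 was not tested. Slc25a3, the phosphate carrier that feeds ATP synthase, gave 10.17, 10.35, 10.24, 10.06, 9.88 and 9.75 in Zbtb32-/- replicates 1 to 6, against 10.26, 9.90, 10.37, 9.63, 9.92 and 9.88 in wild-type replicates 1 to 6, a difference of 0.08 (95% interval -0.23 to 0.39). The ATP-Mg/phosphate carriers Slc25a23, Slc25a24, Slc25a25 and Slc25a41 differed by -0.11, 0.10, -0.03 and -0.13, and the testis form Slc25a31 lay below the filter.

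Of the uncoupling proteins and their relatives 3 of 5 had a positive difference, and Ucp3, with a negative one, had an unadjusted p under 0.05. Ucp3, known from muscle, gave 5.99, 5.94, 5.89, 5.84, 5.86 and 5.93 in Zbtb32-/- replicates 1 to 6, against 6.06, 6.34, 6.13, 6.12, 6.13 and 5.98 in wild-type replicates 1 to 6. Of the 6 Zbtb32-/- values, 5 lay below the lowest wild-type value, but the values lay near the filter, where RMA compresses differences. The difference was -0.22 (95% interval -0.37 to -0.07) (limma, unadjusted p = 0.00856, adjusted p = 0.933) and was -0.24 within replicates 1 to 3 and -0.20 within replicates 4 to 6. Ucp1, the uncoupler of brown fat, differed by 0.07, and Slc25a14, Slc25a27 and Slc25a30, relatives whose substrates are not settled, by -0.17, 0.01 and 0.03.

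Of the pyruvate carrier, a complex of Mpc1 and Mpc2, only Mpc1 had a probe set that names it alone. The number of that probe set is next to that of Slc25a29, a gene of chromosome 12, while Mpc1 is on chromosome 17. How far the probe set reads Mpc1 was not tested. Mpc1 gave 9.29, 9.48, 9.58, 9.25, 9.45 and 9.31 in Zbtb32-/- replicates 1 to 6, against 9.78, 9.55, 9.82, 9.06, 9.61 and 9.33 in wild-type replicates 1 to 6. The ranges overlapped, and the difference was -0.13 (95% interval -0.43 to 0.17). Its size by replicate set was -0.26 within replicates 1 to 3 and 0.00 within replicates 4 to 6. The enzymes that take up its product were described beside it: of 11 genes of pyruvate dehydrogenase and its kinases, 8 had a positive difference and 0 an unadjusted p under 0.05. Those with the smallest p were Pdha1, the alpha subunit (difference 0.30), and Pdk3, a kinase that inhibits the enzyme (difference 0.40).

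The carriers of di- and tricarboxylates measured above the filter all had positive differences of similar size. They were similar in both sets of replicates, but that of Slc25a1 in replicates 4 to 6 rested on a single array. Slc25a10, which exchanges malate or succinate for phosphate, gave 8.99, 9.16, 9.71, 8.88, 8.91 and 9.02 in Zbtb32-/- replicates 1 to 6, against 8.81, 8.998, 8.90, 8.73, 8.59 and 8.60 in wild-type replicates 1 to 6. Slc25a11, which exchanges oxoglutarate for malate in the malate-aspartate shuttle, gave 9.09, 9.12, 9.41, 9.16, 9.20 and 8.86 in Zbtb32-/- replicates 1 to 6, against 9.08, 8.71, 9.05, 8.57, 8.74 and 9.10 in wild-type replicates 1 to 6. Slc25a1, the citrate carrier that supplies the cytosol with acetyl units, gave 9.28, 9.46, 9.59, 9.49, 9.23 and 9.01 in Zbtb32-/- replicates 1 to 6, against 9.25, 8.93, 9.36, 9.29, 9.21 and 8.50 in wild-type replicates 1 to 6. The ranges overlapped for all of these, with 3 Zbtb32-/- arrays above every wild-type array for Slc25a10, 4 for Slc25a11 and 3 for Slc25a1, and replicate 3 of the Zbtb32-/- arrays stood above the rest for Slc25a10. The differences were 0.34 (95% interval 0.02 to 0.66) for Slc25a10 (limma, unadjusted p = 0.0415, adjusted p = 0.933), 0.27 (95% interval -0.02 to 0.56) for Slc25a11 (unadjusted p = 0.0698) and 0.25 (95% interval -0.09 to 0.60) for Slc25a1 (unadjusted p = 0.141), with the same adjusted p. Without Zbtb32-/- replicate 3 the difference of Slc25a10 was 0.22. Slc25a10 differed by 0.39 within replicates 1 to 3 and 0.29 within replicates 4 to 6, Slc25a11 by 0.26 within replicates 1 to 3 and 0.27 within replicates 4 to 6 and Slc25a1 by 0.26 within replicates 1 to 3 and 0.24 within replicates 4 to 6. For Slc25a1, wild-type replicates 4 and 5 (9.29 and 9.21) lay within the range of Zbtb32-/- replicates 4 to 6 (9.01 to 9.49). Only wild-type replicate 6 (8.50) lay below it, and the difference without that array was not computed. The fourth of the group, the oxodicarboxylate carrier Slc25a21, lay below the filter with a difference of -0.17. The 4 enzymes of the malate-aspartate shuttle, cytosolic and mitochondrial transaminases and malate dehydrogenases, also all had positive differences, 0 with an unadjusted p under 0.05, led by Got2 (0.23) and Mdh2 (0.20), the mitochondrial forms.

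Amino acid carriers were mixed, with 5 of 9 positive and a median of 0.15. Slc25a12 and Slc25a13, the aspartate/glutamate carriers that complete the same shuttle, differed by 0.21 and -0.37, but both values were negative over replicates 1 to 3 (-0.08 and -0.80) and positive over replicates 4 to 6 (0.49 and 0.05). The lowest, median and highest values of Slc25a12 were 8.29, 8.70 and 8.98 in Zbtb32-/- cells, against 7.83, 8.47 and 9.01 in wild-type cells. Those of Slc25a13 were 5.42, 5.71 and 5.98 in Zbtb32-/- cells, against 5.59, 5.96 and 7.20 in wild-type cells, and the highest wild-type value was that of replicate 2, without which the difference of Slc25a13 was -0.15. The glutamate carriers Slc25a22 and Slc25a18 differed by 0.15 and -0.20, the ornithine carriers Slc25a15 and Slc25a2 by -0.01 and 0.26, the basic amino acid carrier Slc25a29 by -0.08 and the branched-chain amino acid carrier Slc25a44 by 0.20. Slc25a38, which brings in glycine for haem, had lowest, median and highest values of 7.61, 8.25 and 8.44 in Zbtb32-/- cells, against 7.17, 7.73 and 8.47 in wild-type cells, a difference of 0.37 (95% interval -0.08 to 0.83).

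**Figure D2:**
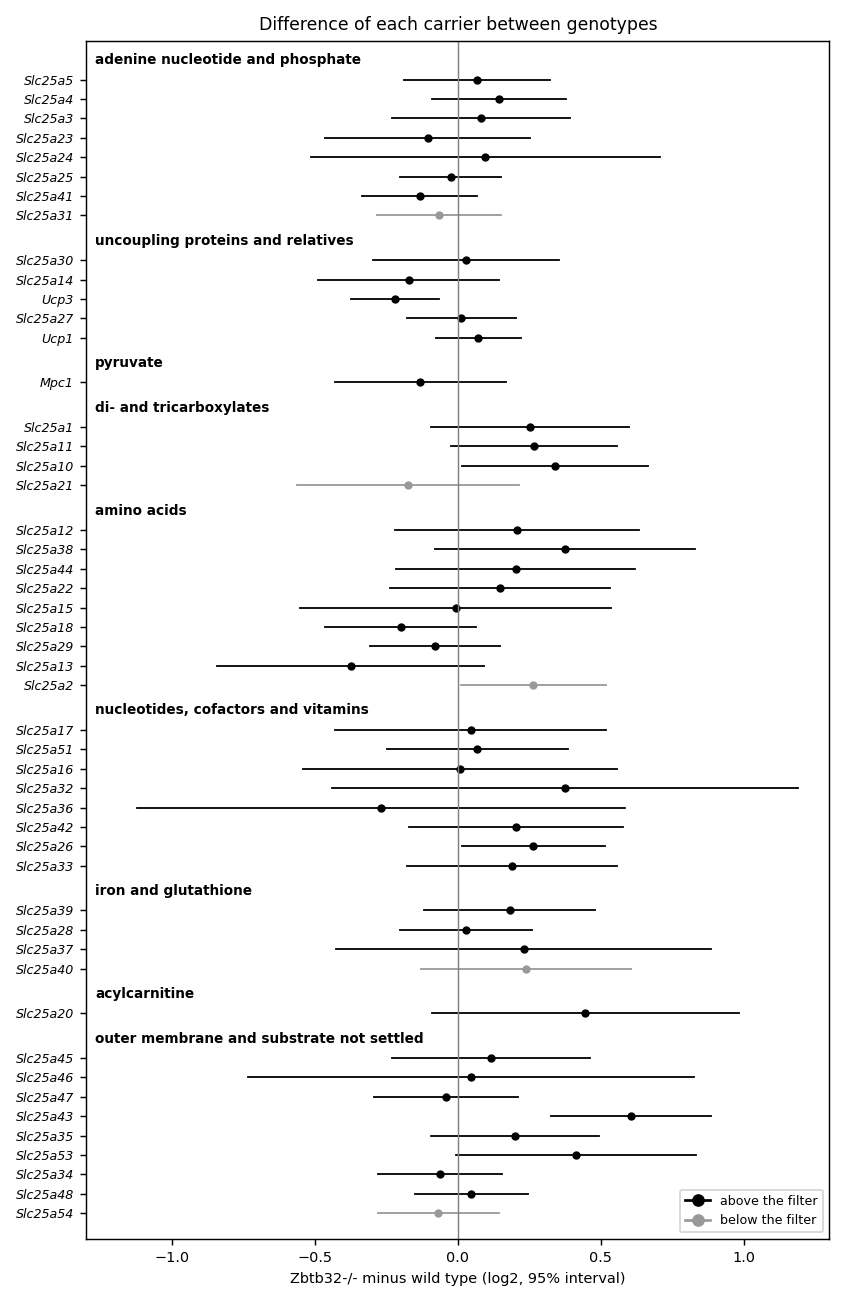
Difference of each carrier, Zbtb32-/- minus wild type (x axis, log2), with its 95% interval from limma; black for the 44 carriers above the filter, grey for the 5 below it, rows by substrate. The interval lies above 0 for Slc25a43, Slc25a26, Slc25a10 and the grey Slc25a2, and below 0 for Ucp3, all before adjustment.

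Of the 8 measured carriers of nucleotides, cofactors and vitamins, 7 had a positive difference, with a median of 0.13. Slc25a26, which brings S-adenosylmethionine into the matrix for methylation, gave 6.46, 6.48, 6.09, 6.63, 6.58 and 6.04 in Zbtb32-/- replicates 1 to 6, against 6.31, 6.06, 6.25, 6.10, 6.06 and 5.92 in wild-type replicates 1 to 6. Its 4 highest Zbtb32-/- values stood above all wild-type values, and the 2 others among them. The difference was 0.26 (95% interval 0.01 to 0.51) (limma, unadjusted p = 0.0403, adjusted p = 0.933) and was 0.13 within replicates 1 to 3 and 0.39 within replicates 4 to 6. Slc25a32, linked to folate and FAD, gave 7.36, 7.61, 7.91, 7.60, 6.53 and 7.14 in Zbtb32-/- replicates 1 to 6, against 7.46, 7.80, 7.55, 7.04, 6.88 and 5.16 in wild-type replicates 1 to 6. Wild-type replicate 6 was far below the other arrays, and without it the difference was 0.01, against 0.38 (95% interval -0.44 to 1.19) with it. Slc25a36, a pyrimidine nucleotide carrier, had the widest spread of the carriers at the probe set used. Slc25a36 gave 6.57, 6.96, 7.80, 6.24, 6.54 and 7.41 in Zbtb32-/- replicates 1 to 6, against 7.53, 8.41, 7.36, 7.33, 7.00 and 5.50 in wild-type replicates 1 to 6. Its difference was -0.27 (95% interval -1.12 to 0.59) and changed sign between the sets of replicates, being -0.66 within replicates 1 to 3 and 0.12 within replicates 4 to 6. Leaving out wild-type replicate 6 gave -0.61, and leaving out wild-type replicate 2 gave -0.02. A second single-gene probe set of Slc25a36, with a mean of 6.46, differed by -0.18 and correlated at r = 0.78 with the probe set used. The number of the second follows those of other carriers on chromosome 9, where Slc25a36 lies, and that of the probe set used does not. How far the probe set used reads Slc25a36 was not tested. The other pyrimidine carrier, Slc25a33, differed by 0.19 (-0.15 over replicates 1 to 3, 0.53 over replicates 4 to 6), the coenzyme A carrier Slc25a42 by 0.20, its relative Slc25a16 by 0.01, the peroxisomal carrier Slc25a17 by 0.04 and the NAD carrier Slc25a51 by 0.07. Of 8 enzymes of mitochondrial one-carbon metabolism, which meet folate in the matrix, 5 were positive and 0 had an unadjusted p under 0.05, led by Shmt2 (0.26), the serine hydroxymethyltransferase, and Gldc (-0.12), of the glycine cleavage system.

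The iron and glutathione carriers all had positive differences, 4 of 4, with a median of 0.21 and 0 with an unadjusted p under 0.05. Slc25a37, the iron importer mitoferrin of red cell precursors, gave 7.78, 7.94, 7.97, 7.92, 7.61 and 8.40 in Zbtb32-/- replicates 1 to 6, against 7.93, 7.18, 8.84, 7.64, 8.12 and 6.52 in wild-type replicates 1 to 6. Wild-type arrays spanned both ends of the range. The difference was 0.23 (95% interval -0.42 to 0.89) and was -0.09 within replicates 1 to 3 and 0.55 within replicates 4 to 6. Slc25a28, the mitoferrin of other tissues, differed by 0.03, the glutathione carrier Slc25a39 by 0.18 and its relative Slc25a40, below the filter, by 0.24, with -0.0049 at its other probe set. Of 12 measured genes of haem and iron-sulfur cluster synthesis, 11 were positive and 0 had an unadjusted p under 0.05, led by Nfs1 (0.52), the cysteine desulfurase, and Cpox (0.37), an enzyme of haem synthesis.

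Levels of 2 carriers of this metabolism were set against erythroid markers, of which 10 of 12 had a positive genotype difference and 0 passed. Across the 12 arrays Slc25a37 correlated with the mean of 12 erythroid markers at r = 0.69 (rho = 0.65, two-sided permutation p = 0.0157 for r and 0.0254 for rho, adjusted p = 0.179 and 0.210 over 294 pairs of carrier and marker list). Without wild-type replicates 2 and 3, the farthest from the median of the markers, r was 0.42, and it was 0.90 within replicates 1 to 3 and 0.49 within replicates 4 to 6. Slc25a38 gave r = 0.64 (rho = 0.74, permutation p = 0.0249 and 0.00814, adjusted p = 0.210 and 0.189), 0.72 without the same arrays, and 0.92 and 0.53 within the sets. With the plasma cell list, Slc25a38 also gave r = 0.60 (permutation p = 0.0384, adjusted p = 0.251), and Slc25a37 gave r = 0.05. Neither carrier passed the adjustment with either list, and the part of red cell precursors in these values was not tested.

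**Figure D3:**
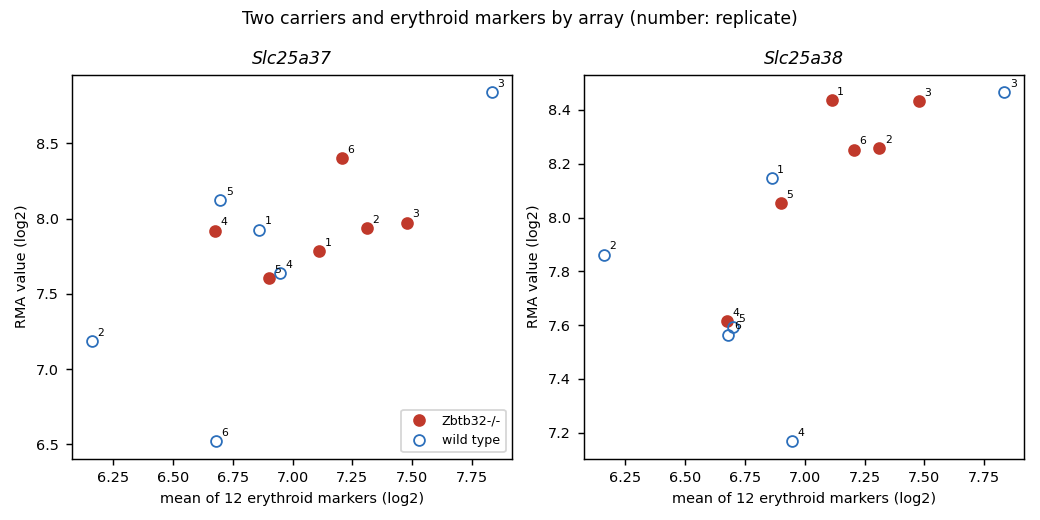
Log2 RMA value of Slc25a37 (left) and Slc25a38 (right) on the y axis against the mean of 12 erythroid markers (x axis, log2) on each array; filled red points are Zbtb32-/- arrays, open blue points wild-type arrays, numbered by replicate. Wild-type replicate 3 has the highest marker mean (7.83) and the highest Slc25a37 value (8.84), and wild-type replicate 2 the lowest marker mean (6.16).

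The acylcarnitine carrier Slc25a20, which brings long-chain fatty acids into the matrix as carnitine esters, had lowest, median and highest values of 7.16, 7.89 and 8.42 in Zbtb32-/- cells, against 6.60, 7.48 and 7.80 in wild-type cells. Its difference of 0.45 (95% interval -0.09 to 0.98) did not pass (limma, adjusted p = 0.933), and the groups overlapped. Of the 4 carnitine shuttle enzymes measured, 2 were positive and 0 had an unadjusted p under 0.05, led by Cpt2 (0.24), which frees the acyl group in the matrix, and Cpt1c (-0.07), a brain form of the outer membrane enzyme.

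Slc25a43, a carrier whose substrate is not settled, was the only one whose genotypes did not overlap. Slc25a43 gave 7.19, 7.06, 7.01, 7.60, 7.24 and 7.15 in Zbtb32-/- replicates 1 to 6, against 6.65, 6.71, 6.85, 6.42, 6.76 and 6.23 in wild-type replicates 1 to 6. All 6 Zbtb32-/- values stood above all 6 wild-type values, which holds for 1 of 49 carriers (2.04%) and, in either direction, for 23 of 14993 genes tested (0.153%). It averaged 7.21 ± 0.21 in Zbtb32-/- cells and 6.60 ± 0.23 in wild-type cells (SD, n = 6 each), a difference of 0.60 (95% interval 0.32 to 0.88) or 1.52-fold (limma, unadjusted p = 0.000401, adjusted p = 0.933). By replicate set the difference was 0.35 within replicates 1 to 3 and 0.86 within replicates 4 to 6, and it was 0.53 to 0.65 on leaving out single arrays. It was 0.62 with the erythroid marker mean as a covariate and 0.61 with the neutrophil one. Slc25a43 and Slc25a5 lie near each other on the X chromosome, where Slc25a14 and Slc25a53 also lie; without the 3 arrays with high Xist the difference of Slc25a43 was 0.71 and that of Slc25a53 0.61.

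**Figure D4:**
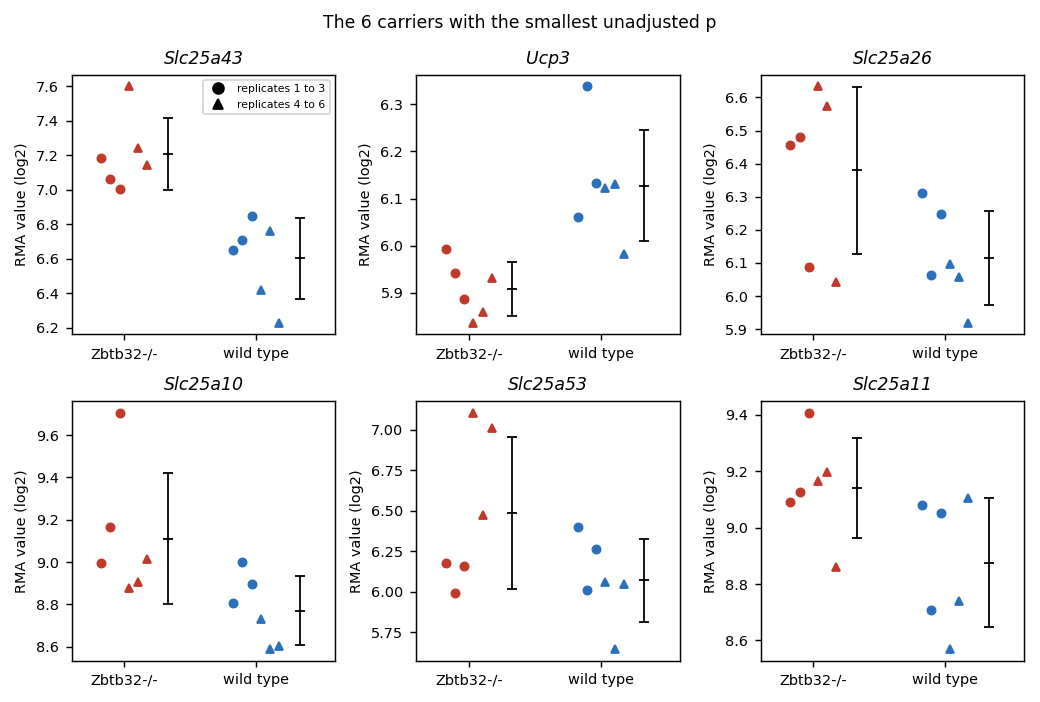
Log2 RMA values (y axis) of the 6 carriers with the smallest unadjusted p on each array, Zbtb32-/- left and wild type right in each panel; circles are replicates 1 to 3, triangles replicates 4 to 6, and the black mark with its bar is the mean ± SD (n = 6 each). The groups separate fully in the panel of Slc25a43, where Zbtb32-/- values run from 7.01 to 7.60 and wild-type values from 6.23 to 6.85.

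Slc25a53, another carrier without a settled substrate, gave 6.18, 5.99, 6.16, 7.11, 6.48 and 7.01 in Zbtb32-/- replicates 1 to 6, against 6.40, 6.01, 6.27, 6.06, 5.65 and 6.05 in wild-type replicates 1 to 6. Zbtb32-/- replicates 4 and 6 stood above the rest. The difference was 0.41 (95% interval -0.01 to 0.83) and was -0.12 within replicates 1 to 3 and 0.95 within replicates 4 to 6. Slc25a46, a protein of the outer membrane that acts in the shaping of mitochondria, gave 7.38, 7.72, 6.85, 8.19, 7.14 and 6.24 in Zbtb32-/- replicates 1 to 6, against 7.92, 7.30, 7.62, 6.44, 7.85 and 6.12 in wild-type replicates 1 to 6. The values spread widely in both genotypes, with a difference of 0.05 (95% interval -0.73 to 0.82). The remaining carriers of this group differed by -0.06 (Slc25a34), 0.20 (Slc25a35), 0.11 (Slc25a45), -0.04 (Slc25a47), 0.05 (Slc25a48) and -0.07 (Slc25a54, below the filter).

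The carriers' differences had a higher median in replicates 4 to 6 than in replicates 1 to 3, sets that no label names as a batch. The median over the 49 carriers was 0.02 over replicates 1 to 3, with 25 positive, and 0.18 over replicates 4 to 6, with 35 positive. Medians over all genes by set are not given here, so the shift is not read as particular to the carriers. Of all genes tested, 341 had an unadjusted p under 0.05 over replicates 1 to 3 alone and 1057 over replicates 4 to 6 alone (limma). The interaction of genotype and set passed for 0 of 44 carriers with limma and for 0% of the 14993 genes; at an unadjusted p under 0.05 it had 4 carriers, Slc25a33, Slc25a53, Slc25a13 and Slc25a47, and 579 genes (3.86%). Slc25a47 had -0.26 within replicates 1 to 3 and 0.18 within replicates 4 to 6. Over the whole panel the mean of the 49 carriers per array ran from 7.11 to 7.23 in Zbtb32-/- cells and from 6.85 to 7.24 in wild-type cells, the lowest being wild-type replicates 4, 5 and 6 (6.98, 7.02 and 6.85). Plasma cell marker means were 10.93, 10.97 and 10.48 in Zbtb32-/- replicates 4 to 6 and 10.40, 10.69 and 10.73 in wild-type replicates 4 to 6, against 11.01 to 11.14 and 10.99 to 11.21 in replicates 1 to 3. Among the Zbtb32-/- arrays, replicate 6 had the lowest plasma cell marker mean (10.48), and replicates 5 and 6 had the lowest carrier means (7.11 each). Among wild-type replicates 4 to 6, replicate 6 had the lowest carrier mean (6.85) and the highest plasma cell marker mean (10.73). The part of the markers in the carriers' differences was not tested.

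**Figure D5:**
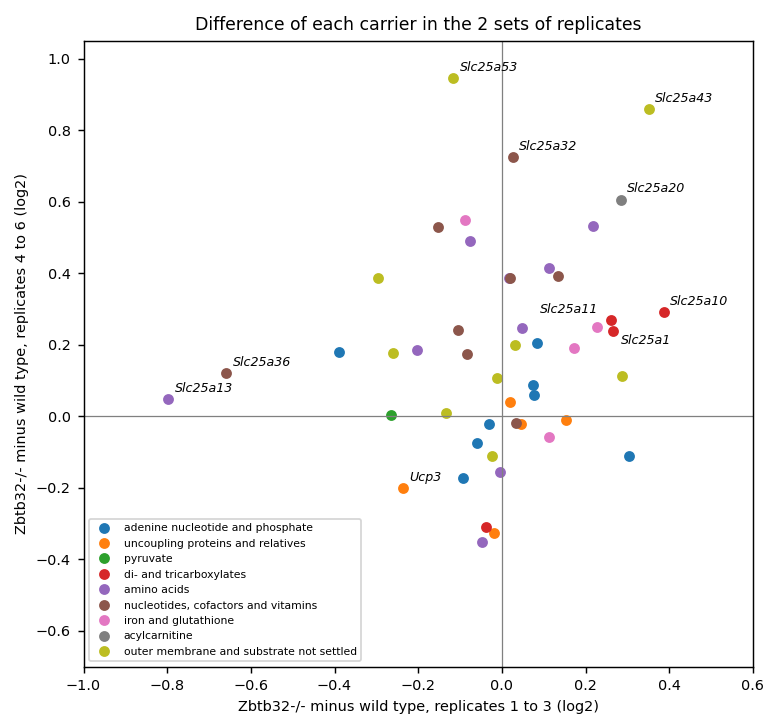
Difference of each of the 49 carriers, Zbtb32-/- minus wild type (log2), over replicates 1 to 3 (x axis) and over replicates 4 to 6 (y axis), coloured by substrate. Slc25a10, Slc25a11 and Slc25a1 lie close together with positive values on both axes, Slc25a43 lies highest on the right, and Slc25a53 and Slc25a32 stand at -0.12 and 0.03 on the x axis.

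Every carrier was also set against the 6 marker lists. Between genotypes 12 of 16 plasma cell markers, 2 of 16 B cell, 15 of 17 neutrophil, 2 of 14 monocyte and macrophage and 1 of 16 T and NK cell markers had a positive difference, and 0 of any list passed with limma. At an unadjusted p under 0.05 there were 3 B cell and 2 T and NK cell markers and 0 of the other lists. Of 294 pairs of carrier and marker list, 52 had an unadjusted permutation p under 0.05 for r. Chance gives 14.7 if the 12 arrays are exchangeable, and the permutations took no account of genotype or replicate number. For r, 0 passed adjustment, with a smallest adjusted p of 0.0529. Of the 52, 12 were with the plasma cell list (11 positive), 8 with the B cell list (0 positive), 9 with the neutrophil list (1 positive), 7 with the monocyte and macrophage list (1 positive), 6 with the erythroid list (5 positive) and 10 with the T and NK cell list (1 positive). By rank 2 pairs passed: Slc25a42 with the B cell list (r = -0.88, rho = -0.91, permutation p = 0.00018 and 0.00014, adjusted p = 0.0529 and 0.0250) and Slc25a12 with the monocyte and macrophage list (r = -0.80, rho = -0.90, permutation p = 0.00199 and 0.00017, adjusted p = 0.0869 and 0.0250). Slc25a42 kept r = -0.91 without wild-type replicates 2 and 5, and -0.91 and -0.78 within the sets of replicates 1 to 3 and 4 to 6. Slc25a12 had r = -0.79 without wild-type replicate 5 and Zbtb32-/- replicate 6, and -0.79 and -0.59 within the sets. The genotype difference of neither carrier passed the test, and the part of other cells in these values was not tested.

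Genes that work beside the carriers were mostly positive, as bright genes were in the whole table, and none passed. Of 71 genes listed, 65 were measured, 53 had a positive difference, 0 had an unadjusted p under 0.05 with limma and the median was 0.13. In bins 8 to 10 of level lay 39 of them, 34 positive (87.2%, median 0.16), where 74.7% of the 5982 genes in these bins were positive with a median of 0.11. The chaperones and translocases that insert carriers into the inner membrane had 9 of 11 positive, led by Timm13 (0.23) and Timm8a1 (0.27), small chaperones of the space between the membranes. The voltage-dependent anion channels of the outer membrane, through which the carriers' substrates pass, had 2 of 3 positive, with Vdac1 at 0.24 and Vdac2 at 0.06. Other transporters of the mitochondrial membranes were positive in 12 of 12, led by Mtch2 (0.27), a protein of the outer membrane related to the carriers, and Sfxn2 (0.28), a sideroflexin.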

How the data were processed

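Each deposited value is the log2 signal of a probe set on an array, from RMA; the submitters' processing notes name Affymetrix Expression Console, with no version. RMA subtracts background, aligns the arrays' distributions and compresses low values. Total RNA was amplified with a WT Pico kit, per the labels' protocols. Gene names came from the platform annotation: of 35556 probe sets 21789 name 1 gene, 1621 several and 12146 are unnamed here, and 21698 were found in a RefSeq table (GRCm38.p6).

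The genotypes were compared by limma 3.58.1 (R 4.3.3; lmFit, eBayes with a trend), genotype as the only term, with Benjamini-Hochberg adjustment over 14993 genes above the 25th percentile of single-gene probe sets and a threshold of 0.05. Correlations used 100000 permutations of all 12 arrays, without regard to genotype or replicate number. The number of arrays limits the precision, and a limma p-value sets a difference against the spread between arrays of the same genotype. Carriers and lists were chosen with earlier results of these data known. Every array is given for the 6 carriers with the smallest p, the 4 with the highest mean and the 4 with the largest SD, for Slc25a4, Slc25a5 and Mpc1, and of each list the 2 genes with the smallest p (those said to lead it) or, for markers, the highest mean are named. Slc25a1, Slc25a12, Slc25a13, Slc25a20, Slc25a38 and Slc25a42, and the promoters shown, were described in more detail after their values were seen. Alternatives were other normalizations, filters, variance settings, array weights, blocks, covariates and leaving out arrays. Tables were joined with pandas 2.3.3 and plots drawn with matplotlib 3.10.9 (Python 3.11.15).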

Additional observations from a re-analysis of the deposited data

Results flagged for a closer look

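Single arrays stood far from the 5 others of their genotype for 5 carriers, by the gap to the nearest array relative to the range of the group (Dixon's 95% value). A total of 98 groups of 6 arrays was examined; chance alone gives about 1 in 20 such groups. The arrays were Zbtb32-/- replicate 3 for Slc25a10 (9.71, the next at 9.16), Zbtb32-/- replicate 4 for Slc25a44 (8.52, the next at 7.87), wild-type replicate 2 for Slc25a15 (7.86, the next at 6.56) and for Slc25a13 (7.20, the next at 6.10), and wild-type replicate 6 for Slc25a32 (5.16, the next at 6.88). Without the array in question, differences were 0.22 for Slc25a10 (0.34 with it), 0.076 for Slc25a44 (0.20), 0.25 for Slc25a15 (-0.01), -0.15 for Slc25a13 (-0.37) and 0.01 for Slc25a32 (0.38); those of Slc25a44, Slc25a15 and Slc25a13 were computed after the data were seen.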

How the results depend on the processing

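Besides the setting reported, 28 others were tried, 1 of them, without the 3 arrays with high Xist, chosen after seeing the data. No carrier passed under any of them with limma, and the number at an unadjusted p under 0.05 was 4 as reported and 2 to 6 with any single array left out, with 2 without wild-type replicate 4. Of all genes, 1 passed, over replicates 4 to 6 alone: Rny1, a small RNA outside the family, named after its value was seen, at 4.63 in Zbtb32-/- cells against 6.15 in wild-type cells (-1.52, adjusted p = 0.0253), where 1057 genes had an unadjusted p under 0.05. The number of genes at that level was 642 as reported and 458 to 1416 with any single array left out (1416 without wild-type replicate 3, 968 without Zbtb32-/- replicate 6, 1005 without wild-type replicate 1), and was 395 with the erythroid markers as a covariate. The median over the carriers lay between 0.02 and 0.13 in the same settings, at 0.13 without wild-type replicate 3, at 0.12 and 0.04 without Zbtb32-/- replicates 6 and 2, and at 0.02 without wild-type replicate 4. Under renewed quantile normalization and median centring, 52.3% and 53.9% of all genes were positive, against 46.4% as deposited, and 33 and 34 carriers were.

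Some differences changed sign, among them those of Slc25a53 (0.41 as reported), Slc25a36 (-0.27) and Slc25a37 (0.23). Over replicates 1 to 3 alone, Slc25a53 was -0.12, Slc25a46 -0.30 and Slc25a37 -0.087, and over replicates 4 to 6 alone, Mpc1 was 0.0027 and Slc25a36 0.12. Without wild-type replicates 2 and 6, Slc25a46 and Slc25a37 were both -0.20, and without the arrays with high Xist Slc25a5 was -0.044 and Slc25a3 -0.047. With any single array left out, Slc25a5 lay between -0.0098 and 0.14, Slc25a46 between -0.17 and 0.25, Slc25a37 between -0.0062 and 0.46 and Slc25a36 between -0.61 and -0.02. The cause was not tested. Slc25a43, Ucp3, Slc25a26, Slc25a10, Slc25a11, Slc25a4 and Slc25a32 kept their sign in all settings that gave a value. Same-numbered arrays of the 2 genotypes correlated at 0.02 to 0.47 in their deviations from the group means, over 0.1 for 4 of 6 numbers. Zbtb32-/- arrays and wild-type arrays of other numbers had median correlations of -0.29 to 0.02, below the same-numbered value for every number. Of 12 arrays, 4 correlated best with their own number. The reported fit did not take the numbers as pairs, and whether they mark shared handling was not tested. With the replicate block, 0 genes passed, 914 had an unadjusted p under 0.05, and 6 carriers did.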
